A study of Mus musculus with 22 samples.

Results

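The genes described are 10 enzymes that break down tryptophan or make, salvage or methylate the precursors of NAD: Acmsd, Qprt, Haao, Kmo, Kynu, Afmid, Nampt, Naprt, Nadsyn1 and Nnmt. They are 10 of the 32858 genes in the count table of mouse kidney, matched by symbol, and all 10 had enough counts to be tested. Acmsd was selected on its measured values in these kidneys, which fell with cisplatin and came back with KW6002, so its values are given as a description with no test. The other 9 stand beside it in the pathway, and how far their own values entered the choice is not recorded.

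RNA-seq was performed on whole kidney of male C57Bl6/J mice, 8 to 10 weeks old, 1 library per mouse. Cisplatin is a platinum drug that injures the renal tubule, and KW6002 (istradefylline) is an adenosine receptor antagonist. The vehicle group (n = 5) received neither drug, the KW6002 group (n = 6) received KW6002 alone at 3 mg/kg, the cisplatin group (n = 5) received cisplatin at 3 mg/kg on 6 days, and the cisplatin + KW6002 group (n = 6) received both. All injections were intraperitoneal and daily. KW6002 ran from day -5 through day 7, and the mice were killed 72 hours after the last cisplatin dose, so that every value belongs to 1 time point. The comparisons address what cisplatin did to the renal transcriptome and how much of it KW6002 altered.

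Tryptophan is opened by a dioxygenase and cleared of its formyl group by AFMID to give kynurenine, which KMO hydroxylates, KYNU cleaves and HAAO opens into an unstable semialdehyde. At that branch point ACMSD removes a carboxyl group and sends the carbon toward acetyl-CoA, whereas the semialdehyde that escapes it closes to quinolinate. QPRT turns quinolinate into a mononucleotide on the route to NAD, and NADSYN1 carries out the amidation that ends this route. NAMPT and NAPRT recover NAD from nicotinamide and nicotinic acid, and NNMT methylates nicotinamide so that it leaves the cycle. In the kidney the breakdown enzymes are known mainly from the proximal tubule.

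The promoter of Haao is shown because HAAO makes the semialdehyde at the branch point, so that its level bears on the steps on either side. The window holds 300 bases of GRCm38.p6 from RefSeq, 250 before to 50 after the annotated start, written 5′ to 3′ on the gene's strand, at chr17:83846741-83847040 (minus strand). RefSeq windows of this kind were matched for 7 of the 10 members. The HNF4 letters CAAAGTCCA, searched on both strands, were in none of the 7 and in 156 of all 32851 windows (0.475%). No base is therefore set in capitals for these letters. The Haao window does hold attaac, the reverse complement of the HNF1 letters GTTAAT. The share of all windows with GTTAAT is not given here, so its presence in Haao is a description only.
Haao: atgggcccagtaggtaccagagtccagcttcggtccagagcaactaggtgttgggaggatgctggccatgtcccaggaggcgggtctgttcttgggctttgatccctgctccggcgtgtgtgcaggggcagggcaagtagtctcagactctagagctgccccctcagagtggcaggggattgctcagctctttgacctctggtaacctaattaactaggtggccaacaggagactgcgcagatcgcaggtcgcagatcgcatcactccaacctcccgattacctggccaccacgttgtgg

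Counts were scaled to CPM (the counts of a gene per 1000000 counts of its library) with trimmed mean of M values (TMM) factors, and the total per library ranged from 26471762 to 40510754 counts. The smallest member value, Nnmt in vehicle replicate 5, rested on 19 counts and the Acmsd values of the cisplatin group on 135 to 392. Proximal tubule markers were present at high counts in every library, and 15 of 16 fell with cisplatin, their summed CPM going from 30020 to 31024 with vehicle to 9739.7 to 15671 with cisplatin and 13810 to 21350 with both drugs. The exception was Pck1, which rose (log2 fold change 1.05, edgeR adjusted p = 0.000134). In RNA of whole kidney, fewer cells of a type and less RNA per cell cannot be told apart. The part of tubule loss in the values below was not tested. The labels number the mice, and 2 number series occur: 3 mice each of the vehicle and KW6002 groups have numbers in the 300s, and the remaining 16 have numbers in the 500s.

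Cisplatin lowered most of the set. Beside Acmsd, 7 of the 9 other members fell and 2 rose (edgeR quasi-likelihood test, adjusted p below 0.05 over 17131 genes), where 35.9% of all genes tested were called lower and 34.6% higher. The median log2 fold change of the 9, without Acmsd, was -1.29, against -0.01 for all genes, and their median absolute value was 1.29 against 0.48. At the stricter threshold that the study used for cisplatin (adjusted p under 0.01, log2 fold change past 1 in size), 6 of the 9 were lower and 0 higher, against 12.1% of all genes in each direction. KW6002 given with cisplatin raised 7 of the 9 relative to cisplatin alone and lowered 1, against 28.6% called higher and 27.2% called lower among all genes. At the stricter threshold these counts were 3 and 1, against 4.65% and 5.66%. Both comparisons use the same cisplatin kidneys, so a kidney that was low there adds to the fall and to the return alike.

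**Figure D1:**
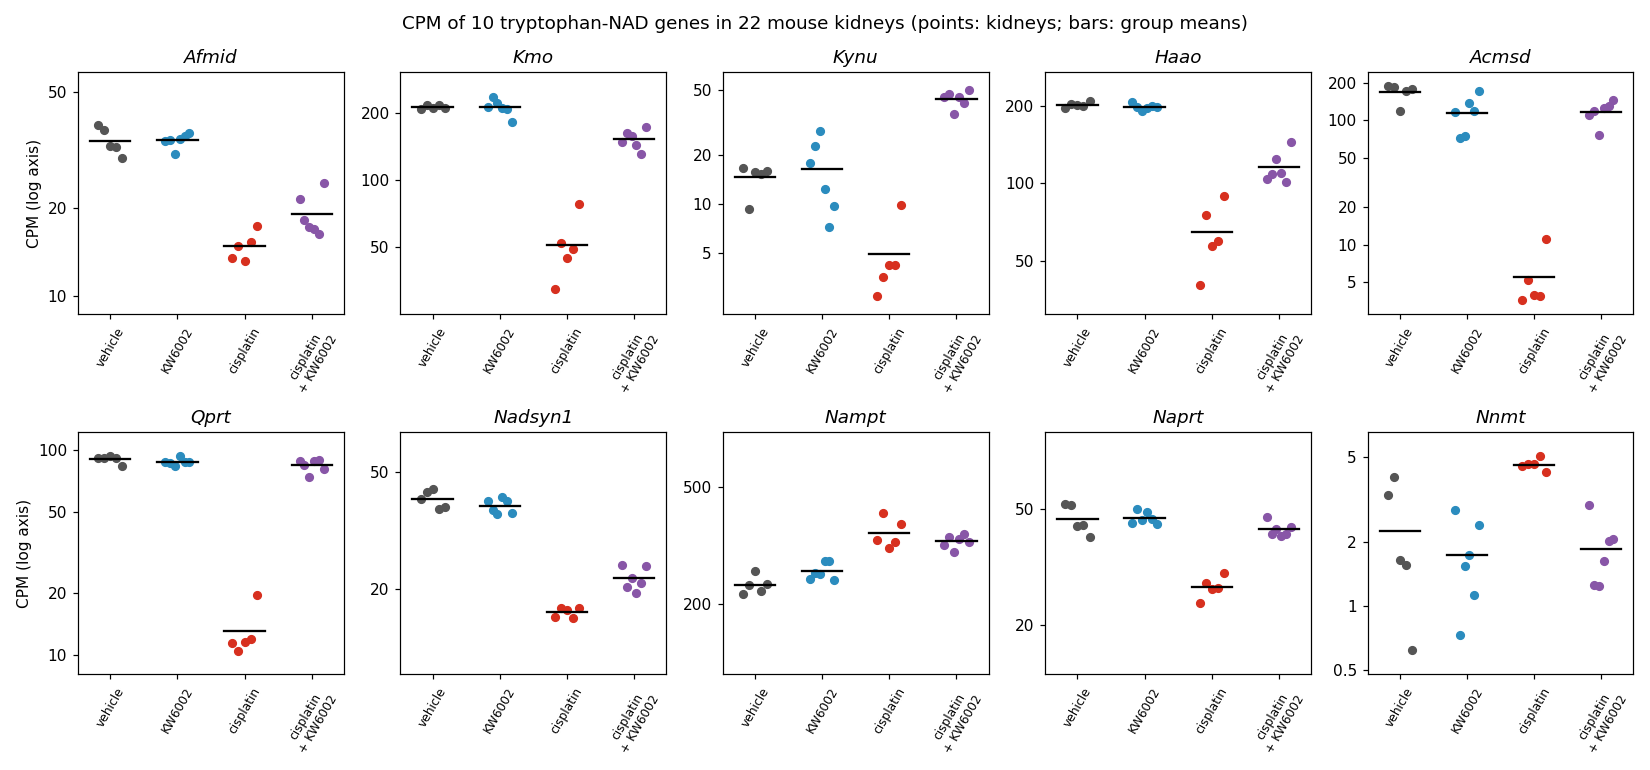
CPM of the 10 genes on log axes, 1 panel per gene, with the 4 groups on the horizontal axis, 1 point per kidney and a bar at each group's mean. Acmsd sits between 118 and 188 CPM with vehicle and between 3.60 and 11.1 with cisplatin, and Kynu is above every vehicle kidney in all 6 co-treated kidneys.

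Acmsd (ENSMUSG00000026348, plus strand of chromosome 1, 127729413-127767978) had the widest range of the set. Its level was 188, 184, 118, 173 and 179 CPM in the 5 vehicle kidneys and 3.60, 5.22, 3.94, 3.91 and 11.1 CPM in the 5 cisplatin kidneys. With both drugs the 6 kidneys ranged from 76.5 to 145 CPM with a median of 122. No cisplatin kidney came near any other group, while the co-treated and vehicle ranges overlapped. The mean was 168 ± 28.8 CPM (SD, n = 5) with vehicle, 5.55 ± 3.16 (n = 5) with cisplatin and 118 ± 23.3 (n = 6) with both. The fitted log2 fold change was -4.93 (SE 0.30) with cisplatin and 4.41 (SE 0.29) for co-treatment against cisplatin, and these are the values that chose the gene. Cisplatin replicate 5 held the highest Acmsd level of its group, and without it the log2 fold changes were -5.33 and 4.82. With co-treatment Acmsd was 0.52 below vehicle on the log2 scale, 10.5% of the size of the fall. With KW6002 alone it ranged from 71.9 to 171 CPM with a mean of 115 ± 37.9 (n = 6). That group was 0.55 below vehicle (SE 0.24). Its Acmsd mean was 87.4 CPM in the mice numbered in the 300s and 142 CPM in those of the 500s. The vehicle means were 163 and 176 CPM in the same order, and all 6 co-treated mice were of the 500s. The overlapping transcript 2900009J06Rik, on the other strand, shares 3.32% of the exonic bases, and whether counting used the strand is not given in the sources used here.

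Qprt (ENSMUSG00000030674, minus strand of chromosome 7, 127107114-127122226), the enzyme that takes quinolinate into NAD synthesis, fell and returned most completely. It read 91.1, 91.5, 93.5, 91.0 and 83.1 CPM with vehicle and 11.5, 10.5, 11.6, 12.0 and 19.7 CPM with cisplatin. With both drugs it ran from 73.4 to 89.6 CPM with a median of 86.3. The cisplatin kidneys lay below every kidney of the other groups, and the co-treated range overlapped that of vehicle. Qprt fell by 2.79 on the log2 scale with cisplatin (SE 0.12, edgeR adjusted p = 3.39e-15), a 6.90-fold reduction, and rose by 2.69 with co-treatment (SE 0.11, adjusted p = 2.39e-13). Against vehicle the co-treated kidneys did not pass the test (log2 fold change -0.10, 95% interval -0.31 to 0.11, adjusted p = 0.425).

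The pair at the branch point did not move by the same factor. The ratio of Acmsd to Qprt CPM within a kidney had a median of 2.01 with vehicle (1.26 to 2.15), 0.341 with cisplatin (0.313 to 0.562) and 1.41 with both drugs (1.04 to 1.80). In the KW6002 kidneys it ranged from 0.831 to 1.96 with a median of 1.34. The cisplatin ratios lay apart from those of all other groups. The mean log2 ratio was 0.88 ± 0.31 with vehicle and -1.32 ± 0.38 with cisplatin (SD, n = 5 each), given without a test because Acmsd is part of it.

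Kmo (ENSMUSG00000039783, plus strand of chromosome 1, 175620381-175662116), the hydroxylase at the entry to quinolinate formation, was tightly grouped without cisplatin. Its level was 208, 216, 209, 216 and 210 CPM with vehicle and 32.4, 51.8, 44.8, 48.7 and 77.8 CPM with cisplatin. With both drugs it ranged from 130 to 173 CPM with a median of 152. The 3 ranges did not overlap. Kmo fell by 2.05 on the log2 scale with cisplatin (SE 0.14, edgeR adjusted p = 1.24e-11) and rose by 1.57 with co-treatment (SE 0.14, adjusted p = 2.47e-09). It stayed below vehicle, with a log2 fold change of -0.48 (SE 0.13, adjusted p = 0.00307).

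Kynu (ENSMUSG00000026866, plus strand of chromosome 2, 43555329-43682715), the hydrolase that cleaves kynurenine and its hydroxylated form, overshot. It stood at 16.6, 9.22, 15.7, 15.2 and 15.98 CPM with vehicle and at 2.72, 3.52, 4.18, 4.20 and 9.85 CPM with cisplatin. With both drugs it ran from 35.5 to 49.7 CPM with a median of 45.5. The vehicle and cisplatin ranges overlapped through vehicle replicate 2 and cisplatin replicate 5, whereas the co-treated kidneys lay above all others. Kynu fell by 1.58 with cisplatin (SE 0.32, edgeR adjusted p = 0.000152) and rose by 3.18 with co-treatment (SE 0.32, adjusted p = 2.54e-08), to 1.60 above vehicle on the log2 scale (SE 0.29, adjusted p = 6.76e-05), a 3.03-fold higher level. Among the members it was the 1 that fell with cisplatin and passed the test above vehicle with both drugs. Among mice of the 500s alone the log2 difference from vehicle was 1.502 (adjusted p = 0.000655).

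Macrophages also express Kmo and Kynu, so the macrophage markers are given beside them. Of 7 markers, 2 were higher and 2 lower with cisplatin, and against cisplatin alone co-treatment had 1 higher and 2 lower. Their summed CPM ran from 172 to 416 with vehicle, 228 to 320 with cisplatin and 128 to 216 with both drugs, and none was at 0 in any library. The part of macrophages in the Kmo and Kynu values was not tested.

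Haao (ENSMUSG00000000673, minus strand of chromosome 17, 83831156-83847963), the dioxygenase just ahead of the branch point, came back only in part. It read 196, 204, 202, 200 and 209 CPM with vehicle and 40.3, 75.4, 57.3, 59.9 and 89.5 CPM with cisplatin. With both drugs it ranged from 101 to 144 CPM with a median of 109. The 3 ranges were separate. Haao fell by 1.65 with cisplatin (SE 0.14, edgeR adjusted p = 2.60e-10) and rose by 0.84 with co-treatment (SE 0.13, adjusted p = 9.15e-06). At -0.81 against vehicle (SE 0.13, adjusted p = 9.79e-06), 49.0% of its log2 fall was left, compared with 23.3% for Kmo and 3.49% for Qprt.

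Afmid (ENSMUSG00000017718, plus strand of chromosome 11, 117825924-117839908), the formamidase, fell by 1.20 with cisplatin (SE 0.10, edgeR adjusted p = 3.58e-10) and kept most of that fall. It went from 29.5 to 38.4 CPM with vehicle to 13.1 to 17.3 with cisplatin and 16.3 to 24.4 with both drugs. The cisplatin and co-treated ranges overlapped, although the difference passed the test (log2 fold change 0.37, SE 0.10, adjusted p = 0.00276). Of its exonic bases 44.3% lie also in the readthrough gene Gm20708 on the same strand, so that its counts are uncertain.

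Nadsyn1 (ENSMUSG00000031090, minus strand of chromosome 7, 143795584-143822849), the amidating enzyme common to both deamidated routes, kept a similar share of its fall. Vehicle kidneys held 37.5 to 44.0 CPM, cisplatin kidneys 15.9 to 17.2 and co-treated kidneys 19.3 to 24.1, with no overlap. It fell by 1.29 (SE 0.06, edgeR adjusted p = 3.89e-14), rose by 0.38 with co-treatment (SE 0.06, adjusted p = 1.53e-05) and was 0.91 below vehicle with both (log2 fold change -0.91, SE 0.06, adjusted p = 2.32e-11). Of the fall, 70.4% was left for Nadsyn1 and 69.5% for Afmid.

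Among the salvage enzymes, Naprt fell and Nampt rose. Naprt (ENSMUSG00000022574, minus strand of chromosome 15, 75890956-75894481) went from 40.1 to 52.0 CPM with vehicle to 23.9 to 30.2 with cisplatin and 40.5 to 46.8 with both drugs. Its log2 fold change was -0.77 with cisplatin (SE 0.07, edgeR adjusted p = 1.05e-09) and 0.65 with co-treatment (SE 0.07, adjusted p = 3.01e-08). Against vehicle it did not pass (-0.12, 95% interval -0.26 to 0.02, adjusted p = 0.118), although it was lower without vehicle replicate 5 (-0.17, adjusted p = 0.0296). Eef1d on the same strand covers 11.8% of its exonic bases.

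Nampt (ENSMUSG00000020572, plus strand of chromosome 12, 32819545-32853349), the rate-limiting enzyme of nicotinamide salvage, held 216, 232, 259, 220 and 233 CPM with vehicle and 331, 410, 309, 325 and 374 CPM with cisplatin. With both drugs it ran from 300 to 345.7 CPM with a median of 330. Both cisplatin-treated groups lay above the vehicle range and overlapped each other. Nampt rose by 0.59 with cisplatin (SE 0.07, edgeR adjusted p = 1.22e-07) and was 0.49 above vehicle with both drugs (SE 0.07, adjusted p = 2.00e-06). The difference between the cisplatin-treated groups did not pass (-0.10, 95% interval -0.24 to 0.04, adjusted p = 0.220).

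Nnmt (ENSMUSG00000032271, minus strand of chromosome 9, 48591877-48605153) had the lowest level per kb of exon in every group but cisplatin. It read 3.34, 4.05, 1.65, 1.55 and 0.618 CPM with vehicle and 4.53, 4.65, 4.64, 5.06 and 4.25 CPM with cisplatin. With both drugs it ranged from 1.24 to 2.97 CPM with a median of 1.82. The cisplatin kidneys lay above all vehicle and co-treated kidneys. Nnmt rose by 1.05 with cisplatin (SE 0.36, edgeR adjusted p = 0.0115), or by 2.10 among mice of the 500s alone, and with co-treatment its log2 fold change against cisplatin was -1.31 (SE 0.34, adjusted p = 0.00224).

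Adipose tissue is a known site of Nnmt expression, so fat markers are given beside it. With cisplatin, where Nnmt rose, 0 of 7 fat markers were higher and 1 was lower than with vehicle (median log2 fold change -0.40). Against cisplatin alone, co-treatment had 5 lower and 0 higher. Their summed CPM ranged from 417 to 835 with cisplatin, 41.3 to 393 with both drugs and 158 to 1432 with vehicle, where replicate 2 was highest both in this sum and in Nnmt. Only Lep was at 0, in 1 library. Of 5 fibroblast markers, 5 were higher and 0 lower with cisplatin than with vehicle (median log2 fold change 1.72). Against cisplatin alone, co-treatment had 4 of them lower and 0 higher (median -1.04). The summed CPM of the fibroblast markers ran from 182 to 398 with vehicle, 771 to 1009 with cisplatin and 342 to 639 with both drugs. With the mean of the fat markers as a covariate, the Nnmt difference between the cisplatin-treated groups was -0.29 (adjusted p = 0.354), while the rise with cisplatin was 1.18 (adjusted p = 1.94e-05). The co-treated against vehicle difference, -0.25 with no covariate (adjusted p = 0.553), became 0.89 (adjusted p = 0.00729). The fat markers differed between the cisplatin-treated groups, so that this covariate and the treatment cannot be told apart. The part of fat or of fibroblasts in the Nnmt values was not tested.

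**Figure D2:**
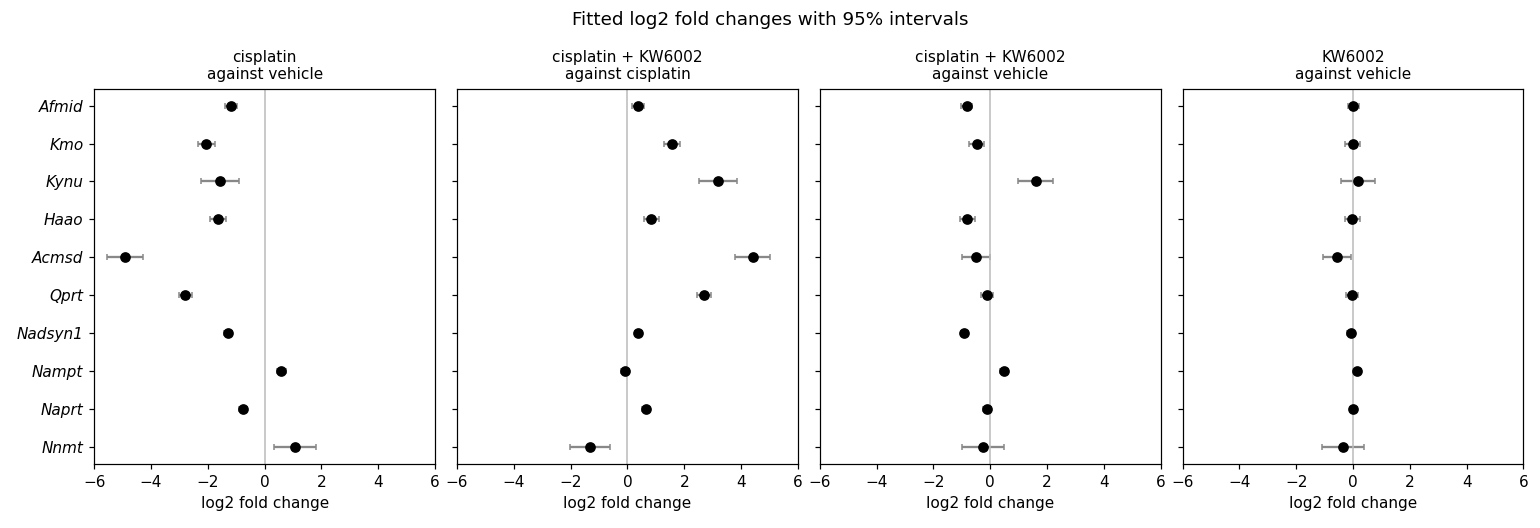
Fitted log2 fold changes (points) of the 10 genes in 4 comparisons with 95% intervals (bars), the genes in the order of their steps. Acmsd was selected on this contrast. Kynu lies at -1.58, 3.18 and 1.60 in the first 3 panels, and in the fourth all genes other than Acmsd have intervals that hold 0 or, for Nampt, run from 0.01 to 0.29.

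Relative to vehicle, the co-treated kidneys retained differences in 6 of the 9 tested members: Haao, Kmo, Afmid and Nadsyn1 were lower, Kynu and Nampt higher, and Qprt, Naprt and Nnmt did not pass. Among all genes 29.9% were called lower and 29.8% higher. At the stricter threshold 1 member, Kynu, was called, higher, against 5.83% of genes higher and 7.59% lower. Acmsd was 0.52 lower on the log2 scale (SE 0.24), with overlapping ranges.

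With KW6002 alone none of the 9 tested members passed the test (0 of 9 with edgeR and 0 of 9 with DESeq2), where 0.0175% of all genes were called higher and 0% lower, and 1 member, Nampt, had an unadjusted p below 0.05 (log2 fold change 0.15, SE 0.07, adjusted p = 0.395). The log2 fold changes of the 9 ran from -0.37 for Nnmt to 0.16 for Kynu. Their median absolute value was 0.04 against 0.09 for all genes. Acmsd, which is not among the 9, was 0.55 lower on the log2 scale (SE 0.24), with ranges that overlapped.

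Within the KW6002 group the ranges of the label series did not overlap for Acmsd, Kynu, Kmo and Afmid. The share of all genes that separated in this way was not counted, so these values are a description only. Acmsd was at 116, 71.9 and 74.4 CPM in the KW6002 mice numbered in the 300s and at 138, 119 and 171 CPM in those numbered in the 500s. Kynu was at 17.8, 22.5 and 28.0 CPM in the first and at 12.2, 7.21 and 9.70 CPM in the second. The series of these genes stood in opposite order. Kmo was at 211 to 234 CPM in the 300s and 182 to 209 CPM in the 500s, and Afmid at 30.5 to 34.1 and 34.4 to 36.1 CPM. In the vehicle group the series overlapped for Acmsd, at 118 to 188 CPM in the 300s and 173 to 179 CPM in the 500s. They were separate there for Qprt, Afmid, Nadsyn1 and Nnmt, each higher in the 300s. Nadsyn1 was at 40.6 to 44.0 CPM in the 300s and 37.5 to 38.1 CPM in the 500s. The order of Afmid in the vehicle group was the opposite of that in the KW6002 group. Among mice of the 500s alone the KW6002 effect on Kynu was -0.69 (adjusted p = 0.516), the opposite sign of the pooled 0.16, and that on Acmsd was -0.30 in place of -0.55. What the number series stand for is not given in the labels.

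The effect of KW6002 differed by whether cisplatin was given. The difference of the log2 effects (with cisplatin minus without) passed the test in 8 of the 9 tested members, 7 higher and 1 lower, against 22.8% and 19.9% of all genes. At the stricter threshold 3 were called higher and 0 lower, against 4.24% and 4.33%. It was 3.02 for Kynu (SE 0.42, edgeR adjusted p = 6.46e-06), 2.73 for Qprt (SE 0.15, adjusted p = 3.67e-11) and 1.58 for Kmo (SE 0.19, adjusted p = 6.87e-07). For Haao it was 0.86, for Naprt 0.64 and for Nadsyn1 0.46, the largest of these 3 adjusted p-values being 0.000516. Afmid, at 0.36 (adjusted p = 0.0345), and Nampt, at -0.25 (adjusted p = 0.0383), were the nearest to the threshold. The Afmid call was lost without vehicle replicates 1 or 2, KW6002 replicate 3, cisplatin replicates 1 or 3, or co-treated replicates 1 or 6 (0.27 to 0.33), and was 0.18 (adjusted p = 0.438) among mice of the 500s alone. The Nampt call was lost without vehicle replicates 1, 2, 4 or 5, KW6002 replicates 4 or 5, cisplatin replicates 2 or 5, or co-treated replicates 1 or 3 (-0.25 to -0.19). Nnmt did not pass (-0.94, 95% interval -1.97 to 0.08, adjusted p = 0.129), but did without vehicle replicate 2 (-1.25, adjusted p = 0.0402) and among mice of the 500s alone (-2.01, adjusted p = 0.00304).

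The members were also set against the proximal tubule markers, which shifts all members of a kidney by the same amount. The mean log2 CPM of the 16 markers was 2.77 lower than vehicle with cisplatin (-2.77 ± 0.42, SD, n = 5) and 1.26 lower with both drugs (-1.26 ± 0.28, n = 6). Relative to that mean in the same kidney, Acmsd was at -2.25 ± 0.39 with cisplatin and 0.74 ± 0.33 with both drugs, on a log2 scale where the vehicle mean is 0. Qprt was at -0.05 ± 0.29 with cisplatin and 1.16 ± 0.30 with both, and Kmo at 0.67 ± 0.08 and 0.78 ± 0.25. Haao was at 1.07 ± 0.16 and 0.44 ± 0.25. Kynu stood 2.88 ± 0.23 above it in the co-treated kidneys. Where the members stood against the markers depended on how the markers were summarised. Their summed CPM, which holds Pck1 and was used after the data had been seen, fell less (-1.33 ± 0.26 with cisplatin on the log2 scale). Relative to that sum the cisplatin kidneys were at -3.70 ± 0.44 for Acmsd, -1.49 ± 0.26 for Qprt, -0.78 ± 0.21 for Kmo and -0.37 ± 0.19 for Haao, and Kynu, at 1.10 ± 0.34 relative to the mean, was at -0.35 ± 0.49. The values of Kmo, Haao and Kynu thus turned sign. Acmsd with cisplatin lay below both the mean and the sum of the markers, and Kynu with both drugs lay above both. Acmsd was chosen on its fall, and it was not compared with single markers. Those varied unequally, with counts over all libraries of 129 to 34326 for Slc7a13 and 16884 to 47388 for Slc22a6. These values describe the kidneys and carry no test.

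**Figure D3:**
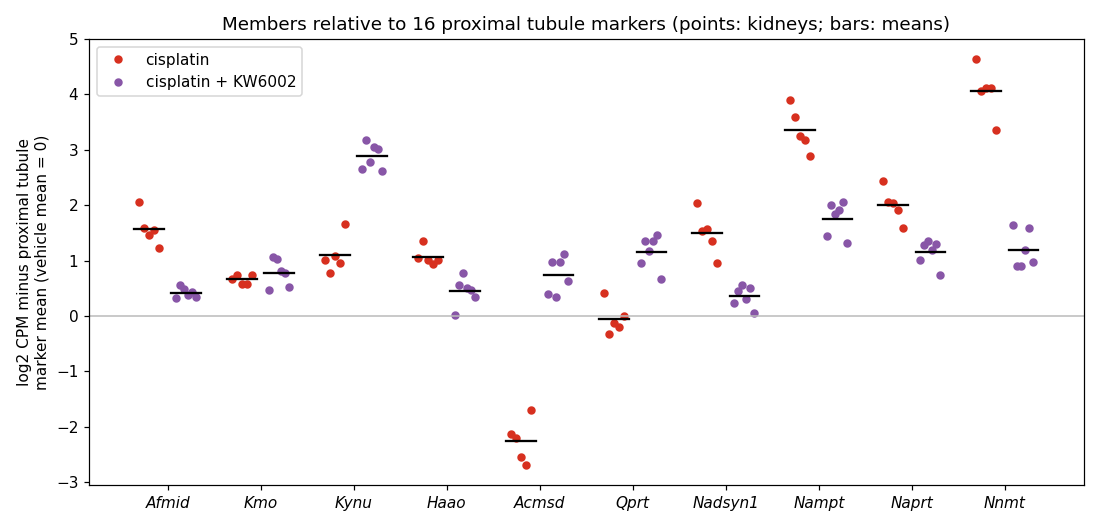
Log2 CPM of each gene minus the mean log2 CPM of 16 proximal tubule markers in the same kidney, with the vehicle mean set to 0, for the 5 cisplatin and 6 co-treated kidneys (points) and their means (bars). Acmsd is the 1 gene whose cisplatin kidneys are all below -1.70. Qprt lies around 0 with cisplatin and from 0.66 to 1.47 with both drugs.

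Per kilobase of exon, the order of the members changed with treatment. With vehicle the levels were highest for Acmsd (59.5 ± 10.2 CPM per kb), Nampt (45.9 ± 3.38), Kmo (44.8 ± 0.802) and Haao (43.2 ± 1.01), each overlapping the next in its range. Qprt followed at 34.0 ± 1.52 CPM per kb, then Naprt, Nadsyn1 and Afmid, each apart from its neighbours. Kynu (2.37 ± 0.490) and Nnmt (1.42 ± 0.894) overlapped at the bottom. Of the exonic bases, 44.3% for Afmid and 11.8% for Naprt lie also in another gene on the same strand, so their places are uncertain. With cisplatin Nampt stood alone at 69.2 ± 8.20 CPM per kb, and Acmsd, at 1.96 ± 1.12, was the ninth of the 10, overlapping Nnmt above and Kynu below. With both drugs Acmsd was back in the second place at 41.5 ± 8.24 CPM per kb, and Kynu, at 7.19 ± 0.816, had passed Nadsyn1 and Afmid, with a range overlapping that of Nadsyn1.

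The remaining genes of the pathway were taken from lists by role, in which 55 of 59 genes could be tested. With cisplatin 32 fell and 17 rose (58.2% and 30.9% of the 55), against 35.9% called lower and 34.6% called higher among all genes, and their median log2 fold change was -0.28 against -0.01. Compared with cisplatin alone, 25 were higher and 11 lower with both drugs (45.5% and 20%, against 28.6% and 27.2% of all genes). With KW6002 alone 0 of the 55 passed with edgeR and 2 with DESeq2, and 10 had an unadjusted p below 0.05, as had 11.3% of all genes. Tdo2 and Ido1, which open the tryptophan ring, had at most 9 and 11 counts in any library and were not tested.

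On the side of supply, the tryptophan carriers Slc6a19 and Slc16a10 fell by 1.82 and 1.58 on the log2 scale with cisplatin (edgeR adjusted p = 3.07e-10 and 6.92e-13) and rose by 0.89 and 0.83 with co-treatment (adjusted p = 1.62e-05 and 5.08e-08). Slc7a5, the light chain of the system L exchanger, rose by 1.32 with cisplatin (adjusted p = 1.65e-07) and was 1.57 above vehicle with both drugs (adjusted p = 1.78e-08). Ido2, a dioxygenase of low activity, fell with cisplatin and did not return. It was at 12.8 to 15.2 CPM with vehicle, 2.66 to 3.62 with cisplatin and 1.14 to 3.49 with both drugs. Its log2 fold change was -2.16 with cisplatin (adjusted p = 2.89e-09) and -0.53 for co-treatment against cisplatin (adjusted p = 0.0369), a call that was lost when any 1 of 7 libraries was left out.

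Aadat, an aminotransferase that diverts kynurenine to kynurenic acid, was the nearest to Acmsd in the size of its fall. It went from 259 to 494 CPM with vehicle to 15.9 to 29.3 with cisplatin and 111 to 150 with both drugs. Aadat fell by 4.09 (SE 0.18, edgeR adjusted p = 8.80e-15), rose by 2.5 with co-treatment (SE 0.17, adjusted p = 6.29e-11) and was still 1.59 below vehicle (log2 fold change -1.59, SE 0.15, adjusted p = 1.08e-08). The Kmo to Aadat ratio of CPM, which compares the branches of kynurenine use, had a median of 0.519 with vehicle (0.426 to 0.805), 2.23 with cisplatin (2.04 to 2.66) and 1.22 with both drugs (1.13 to 1.39), with no overlap. Of the other aminotransferases, Kyat1 rose by 0.78 with cisplatin (adjusted p = 2.48e-05). Kyat3 was 0.61 above vehicle with both drugs (adjusted p = 8.51e-05), after a fall of 0.28 with cisplatin (adjusted p = 0.0414) that did not pass when scaled by library size only (-0.06, adjusted p = 0.614) or when any 1 of 6 libraries was left out.

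**Figure D4:**
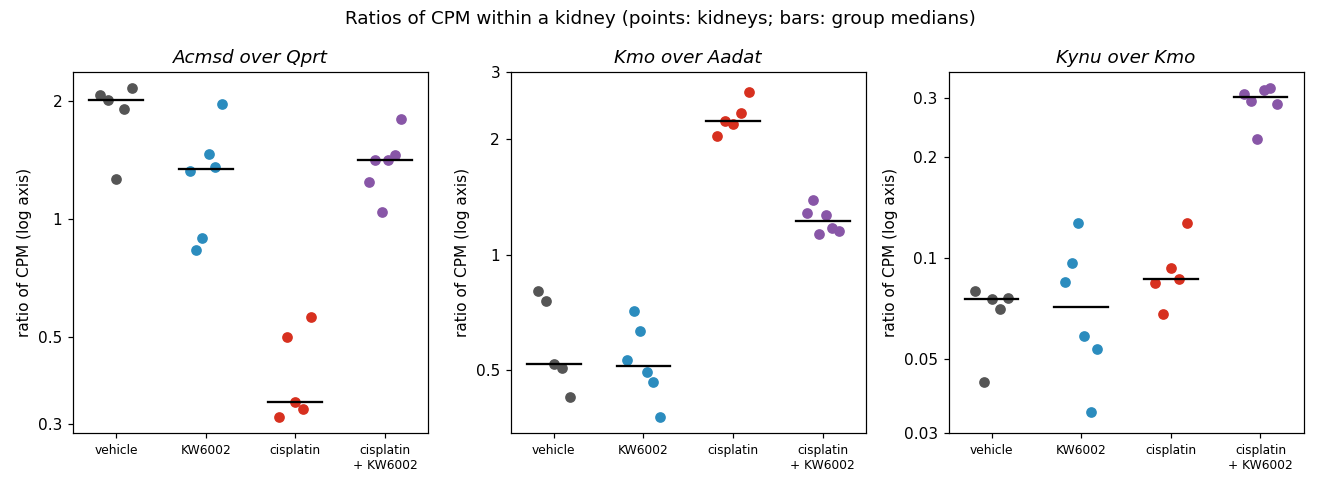
Ratios of CPM between genes of the same kidney on log axes, 1 point per kidney with a bar at the group median. The Acmsd to Qprt ratio is lowest with cisplatin (0.313 to 0.562), the Kmo to Aadat ratio is highest there (2.04 to 2.66), and the Kynu to Kmo ratio is highest with both drugs (0.226 to 0.320).

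Downstream of Acmsd, all 4 genes of the oxidation list fell with cisplatin, as did 35.9% of all genes, and 3 rose with co-treatment, as did 28.6% of all genes. Aldh8a1, the dehydrogenase that takes up the product of ACMSD, fell by 1.80 (SE 0.10, edgeR adjusted p = 3.25e-13) and rose by 1.18 (SE 0.10, adjusted p = 1.02e-09). Dhtkd1, of the oxoadipate dehydrogenase complex, fell by 1.51 (SE 0.15, adjusted p = 6.35e-09) and rose by 1.23 (SE 0.14, adjusted p = 2.45e-07). Gcdh fell by 0.73 (adjusted p = 9.87e-07) and rose by 0.50 (adjusted p = 0.000124). Aldh8a1 was at 361 to 411 CPM with vehicle, 87.6 to 156 with cisplatin and 231 to 274 with both drugs, so that its 3 ranges were separate.

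Of 5 genes in the list of NAD formation 2 fell with cisplatin and 0 rose, where 35.9% of all genes were called lower and 34.6% higher. Nmrk1 fell by 0.54 (edgeR adjusted p = 0.00124) and Nmnat1 by 0.29 (adjusted p = 0.000191). For Nmrk1, the riboside kinase, the log2 fold change was -0.06 (adjusted p = 0.588) among mice of the 500s alone, and for Nmnat1 it was -0.072 (adjusted p = 0.312) when scaled by library size only. Of the kinases and carriers 4 of 6 fell and 0 rose, beside the same shares of all genes. The largest fall was that of the mitochondrial NAD kinase Nadk2 at -0.98 (adjusted p = 2.28e-12), with Nnt at -0.83 and the mitochondrial NAD carrier Slc25a51 at -0.26. Nnt had few counts, 30 to 55 with vehicle and 22 to 50 with cisplatin (mean 1.49 and 0.836 CPM), and its ranges overlapped. The Nnt call was lost among mice of the 500s alone (-0.55, adjusted p = 0.146) and with a label series term (-0.55, adjusted p = 0.0527), and that of Slc25a51 when scaled by library size only (-0.039, adjusted p = 0.464).

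All 17 tested NAD consumers passed with cisplatin, 10 higher and 7 lower, where 34.6% of all genes were called higher and 35.9% lower. Bst1, an ectoenzyme that cleaves NAD, rose by 2.73 (SE 0.29, edgeR adjusted p = 1.89e-08) and was 1.60 lower with co-treatment than with cisplatin alone (log2 fold change -1.60, SE 0.26, adjusted p = 1.74e-05). Sirt3, the mitochondrial deacetylase, fell by 0.94 (adjusted p = 5.50e-09) and Parp14 rose by 0.71 (adjusted p = 1.41e-08). For neither did co-treatment pass against cisplatin, with log2 differences of -0.01 for Sirt3 (95% interval -0.20 to 0.17, adjusted p = 0.916) and -0.05 for Parp14 (adjusted p = 0.587). Of 7 breakdown genes 3 rose and 4 fell with cisplatin, with Aox1 at 1.22 and Nt5e at 1.04 (adjusted p = 0.00338 and 1.67e-05) and Aox3 at 0.77. Aox1 was 1.27 lower with co-treatment than with cisplatin (log2 fold change -1.27, adjusted p = 0.00208), which became -0.39 (adjusted p = 0.257) with the fat covariate.

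Of the transcription regulators, Hnf4a and the coactivator Ppargc1a fell with cisplatin and rose with co-treatment. Hnf4a fell by 0.59 and rose by 0.57 (edgeR adjusted p = 2.81e-08 and 7.13e-08) and Ppargc1a fell by 0.93 and rose by 0.51 (adjusted p = 4.06e-09 and 3.13e-05). Ppara rose by 0.89 with cisplatin and was lower with co-treatment (log2 fold change -0.59, adjusted p = 3.54e-05).

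**Figure D5:**
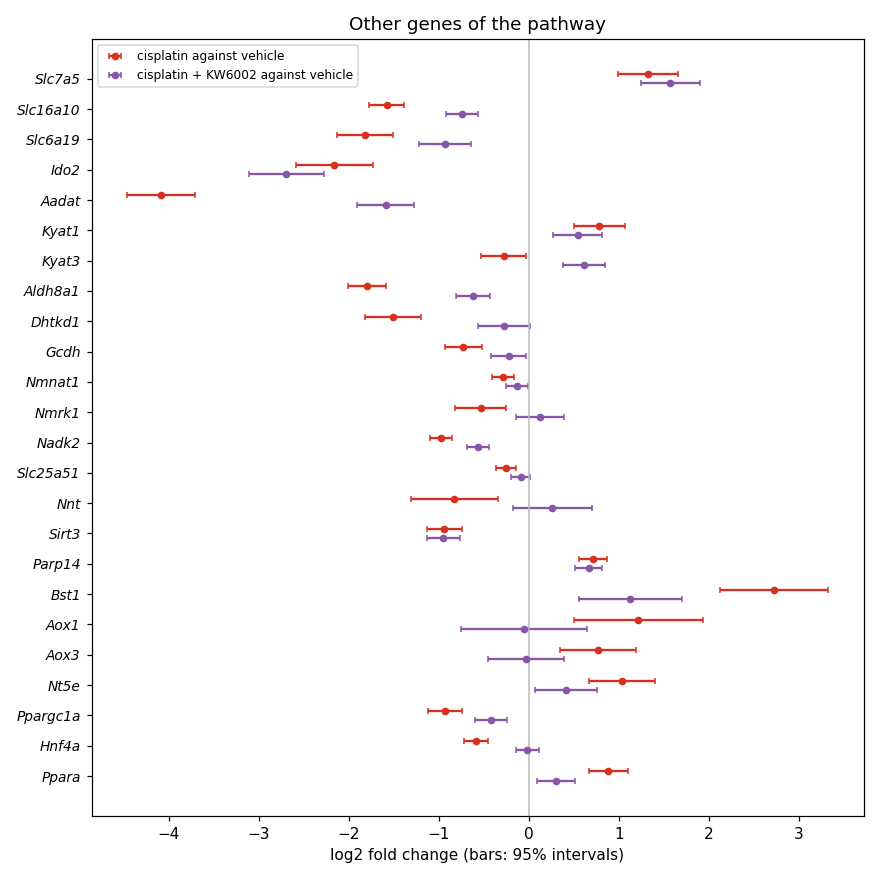
Log2 fold changes of 24 other pathway genes against vehicle, with cisplatin (red) and with both drugs (purple), and 95% intervals (bars), in the order of the lists. Both sets share the vehicle kidneys. Aadat lies at -4.09 and -1.59, Ido2 at -2.16 and -2.69, and Sirt3 at -0.94 and -0.95.

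Genes were also ranked by how closely their log2 CPM, less the vehicle mean, followed that of Acmsd over the 22 kidneys, among the 10429 other genes whose average log2 CPM reached 3. The closest by root mean square difference was Cyp2d26 (0.48), a cytochrome P450, followed by Sectm1b (0.64), Akr1c21 (0.64), Olfm3 (0.68) and Slc26a1 (0.71). Cyp2d26 ran from 212 to 289 CPM with vehicle, 4.5 to 15.5 with cisplatin and 106 to 227 with both drugs. With KW6002 alone it ran from 164 to 215 CPM. Of the members Qprt was the most like Acmsd, at rank 67, followed by Kmo at rank 185 and Haao at rank 317, and Nampt came at rank 8776.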

How the data were processed

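Poly(A) RNA of 22 mouse kidneys was sequenced from stranded libraries, 1 per mouse, so that replicates are separate animals. Per the labels and the submitters' processing notes, the authors demultiplexed reads with bcl2fastq 2.17.1.14, aligned them to mm10 with STAR and deposited raw counts per Ensembl gene from HTSeq 0.6.1p1. Whether counting used the strand is not given in the sources used here. The table also held 66 unnamed empty columns, which were not used. Symbols and places came from GENCODE (GRCm38) and promoter windows from RefSeq (GRCm38.p6), which held 7 of the 10 members.

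Counts were filtered by expression (17131 genes kept), scaled by TMM and fitted with 1 mean per group in edgeR 4.0.16 (R 4.3.3). Each contrast was tested by the quasi-likelihood F test with Benjamini-Hochberg adjustment over all genes kept. The standard error is the absolute log2 fold change divided by the square root of F. The fit was tested on simulated data. CPM are scaled by TMM factors, and levels per kb divide by the union of exons. Alternatives were DESeq2 1.42.0, other scalings, no filter, fits on just the compared groups, a replicate block, a label series term, mice of the 500s alone, a fat covariate, a stricter threshold and each library left out. The summed CPM of the proximal tubule markers, in place of their mean log2 CPM, was chosen after seeing the data. Intervals cover the spread between mice, and every library held at least 26471762 counts.

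The members and all lists were chosen with earlier results of these data known, and whether values of the 9 members other than Acmsd entered that choice is not recorded. Named were all members and, of the other lists, Aldh8a1, Ppargc1a, Hnf4a and up to 3 genes per list with the largest absolute change with cisplatin among those past adjusted p 0.05 whose average log2 CPM was 0 or more. Not every gene that this rule names, nor every matched promoter, is reported here.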

Additional observations from a re-analysis of the deposited data

Results flagged for a closer look

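In 6 of 40 sets of values (10 genes in 4 groups) the highest or lowest kidney stood apart from its group by more than Dixon's 95% critical value (0.71 for 5 kidneys and 0.625 for 6), and chance gives about 1 in 20. Cisplatin replicate 5 was the high value in 3 of them, with 11.1 CPM for Acmsd, 19.7 CPM for Qprt and 9.85 CPM for Kynu. The others were in the vehicle group, with Acmsd at 118 CPM in replicate 3, Qprt at 83.1 CPM in replicate 5 and Kynu at 9.22 CPM in replicate 2. Without cisplatin replicate 5 the log2 fold change with cisplatin was -2.98 for Qprt and -1.995 for Kynu.

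The effect of KW6002 differed between mice with and without cisplatin, by the edgeR test of the difference itself, for 8 members. The difference on the log2 scale was 2.73 for Qprt, 0.86 for Haao, 1.58 for Kmo, 3.02 for Kynu, 0.36 for Afmid, -0.25 for Nampt, 0.64 for Naprt and 0.46 for Nadsyn1. Among the uptake and side branch genes it was 1.07 for Slc16a10, 1.43 for Slc6a19, 2.38 for Aadat and 0.76 for Kyat3. Downstream of Acmsd it was 1.17 for Aldh8a1, 1.34 for Dhtkd1 and 0.60 for Gcdh. Among the NAD genes it was 0.61 for Nmrk1, 0.44 for Nadk2, 0.20 for Slc25a51, 0.98 for Nnt, -2.02 for Bst1 and -0.81 for Aox3. Of the regulators it was 0.58 for Ppargc1a, 0.59 for Hnf4a and -0.57 for Ppara. Mice of the 300s are found in the vehicle and KW6002 groups and in neither group given cisplatin.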

How the results depend on the processing

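The counts of the 9 tested members past the threshold stayed within 1.5 times the reported count under every alternative except the stricter threshold (adjusted p below 0.01 and log2 fold change beyond 1), which left 4 for co-treatment against cisplatin, 1 for co-treatment against vehicle and 3 for the difference of the KW6002 effects. For the other pathway genes it left 11 with cisplatin, 7 for co-treatment against cisplatin, 4 for co-treatment against vehicle and 6 for the difference of effects. For KW6002 against vehicle DESeq2 called 2 of these genes where edgeR called 0, and leaving out 1 library gave 0 to 1. Scaling by library size only moved the median of all genes by 0.20 with cisplatin and 0.16 with both drugs against vehicle. It turned Qprt and Naprt of co-treatment against vehicle to 0.061 and 0.036, and took Nampt of co-treatment against cisplatin to -0.16 (adjusted p = 0.0426). Among mice of the 500s alone, Naprt of co-treatment against vehicle was 0.018, Nnmt 0.79, and the KW6002 effect was -0.69 for Kynu and 0.70 for Nnmt. Nnmt against vehicle with both drugs was also turned by the label series as a covariate (0.19) and by the fat covariate (0.89), and with the latter the KW6002 effect on Nnmt was 0.23, Sirt3 of co-treatment against cisplatin was 0.016 and Parp14 was 0.0068. Leaving out each library in turn gave -0.50 to 0.059 for Nnmt of co-treatment against vehicle, -0.057 to 0.31 for the KW6002 effect on Kynu and -0.077 to 0.039 for Sirt3 of co-treatment against cisplatin, and the sign turned without vehicle replicate 2 for Nnmt and without KW6002 replicate 3 for Kynu. For Sirt3 it turned without cisplatin replicates 2 or 5 or co-treated replicates 4 or 5. The difference of KW6002 effects lost its call without 1 of 7 libraries for Afmid and without 1 of 10 for Nampt. The cause of these changes was not tested. Deviations of same-numbered mice from their group means correlated above 0.1 in 7 of 31 pairs (range -0.175 to 0.405). Between vehicle and KW6002 the correlations were 0.405, -0.153, 0.132, 0.155 and 0.194 for replicates 1 to 5. Mice of unlike number were not compared, so these values cannot decide whether the numbers pair the mice. With the replicate block the member counts were 9, 8, 6, 0 and 8 in the 5 comparisons, the reported counts. The depth limits Nnmt most, with as few as 19 counts.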
